A study of Mus musculus with 6 samples.

Results

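A set of 10 genes of BMP and activin signalling was followed in obstructed mouse kidneys: the BMP ligand genes Bmp2, Bmp4, Bmp6 and Bmp7, the activin subunit genes Inhba and Inhbb, and the antagonist genes Fst, Grem1, Nbl1 and Sostdc1. They were taken by name from the gene column of the arrays, which lists 27745 distinct names; all 10 were found, on 13 of the 41174 non-control probes. In 3 CD-1 mice, numbered 495, 485 and 512, the left ureter was completely ligated, and that kidney is compared here with the contralateral kidney on the right, with 1 single-colour Agilent array for each of the 6 kidneys. CD-1 is an outbred stock, no allele or drug is named, and all animals had 1 ureter ligated, so the control kidney too comes from an operated mouse. The interval between ligation and sampling and the age of the animals are not given in the sources used here. Obstruction of this kind is widely used to bring about fibrosis of the kidney.

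BMPs and activins are secreted relatives of TGF-beta that act through pairs of type I and type II receptor kinases. BMPs signal mainly through the Smad proteins Smad1, Smad5 and Smad9, and activins through Smad2 and Smad3. Activins are dimers of the beta subunits encoded by Inhba and Inhbb. Antagonists work outside the cell by holding the ligand: follistatin (Fst) binds activins, gremlin (Grem1) and the DAN protein (Nbl1) bind BMPs, and Sostdc1, also called USAG-1, binds BMP7 in the kidney. In the adult kidney Bmp7 is made mainly by the distal nephron, the collecting duct and podocytes, and it is known as a protective factor in models of kidney injury, while activin A is known as a factor that rises with injury.

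The position of a probe matters for what it reads, and most members rest on a single stretch of 60 bases. The 6 probes printed here are taken, from knowledge of the proteins, to lie in coding sequence (no mm8 annotation was used here). They are given 5′ to 3′ as deposited, in lower case throughout since the whole oligonucleotide hybridizes; positions are in the mm8 build. The Inhba probe (A_51_P239750, chr13:15817688-15817747), the Bmp2 probe (A_51_P185229, chr2:133252686-133252745) and the Bmp4 probe (A_51_P383741, chr14:45306004-45306063) each cover 60 unbroken bases of genome. The Fst probe (A_51_P381821, chr13:115575362-115576034) and a Bmp6 probe (A_52_P468441, chr13:38477222-38492365) span 673 and 15144 bases of genome, so their genomic match is split. The Inhbb probe printed (A_52_P152847, chr1:121245386-121245445) is the one whose reading differs from that of the other Inhbb probe.
Inhba: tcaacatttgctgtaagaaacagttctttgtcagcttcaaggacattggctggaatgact
Inhbb: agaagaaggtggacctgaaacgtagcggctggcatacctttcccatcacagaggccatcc
Bmp2: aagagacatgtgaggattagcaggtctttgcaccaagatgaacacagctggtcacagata
Bmp4: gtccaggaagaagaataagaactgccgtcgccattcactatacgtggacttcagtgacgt
Bmp6: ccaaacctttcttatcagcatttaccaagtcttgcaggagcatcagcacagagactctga
Fst: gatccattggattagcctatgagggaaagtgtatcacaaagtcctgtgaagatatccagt
The other probes are named by position only. The other Inhbb probe (A_51_P325904, chr1:121243052-121243111) lies 2274 bases farther along the gene, and the other Bmp6 probe (A_52_P413646) lies at chr13:38507076-38507135. The Bmp7 probes (A_51_P492366, chr2:172512720-172512779, and A_52_P278354, chr2:172512641-172512700) are 19 bases apart. Grem1 was read at chr2:113549909-113549968, Nbl1 at chr4:138354384-138354443 and Sostdc1 at chr12:36828466-36828525.

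Inhba, follistatin, Nbl1, Bmp2 and, on its brighter probe only, Inhbb were higher in the ligated kidney, and Bmp7 was lower. Of the 10 genes, 5 rose and 1 fell at an adjusted p under 0.05 (limma, ligated minus contralateral within each mouse, adjusted over all 19598 genes tested), against 16.0% of all tested genes that rose and 14.7% that fell. The 4 genes that were not called are Bmp4, Bmp6, Grem1 and Sostdc1. The groups lay apart, with all ligated above all contralateral kidneys, for Bmp2, Inhba, Inhbb and Nbl1 (4 genes, against 24.7% of all genes). Of these, Bmp2 had contralateral readings at background, and the groups of the other Inhbb probe overlapped. They lay apart the other way round for Bmp4 and Bmp7 (2 genes, against 28.8%). The median log2 change of the 10 genes was 0.89, where that of all genes was -0.01, and the single values ran from -1.68 for Bmp7 to 3.59 for Fst. All 10 passed the filter on dim probes, but Bmp2 and Fst only through the ligated group, where they read higher. Their calls are therefore no independent support. With the filter on all 6 arrays, which does not test Bmp2 and Fst, 3 of 8 members rose and 2 fell, beside 33.4% of 17353 genes called. The 10 genes were chosen with earlier results of these data known, so the shares above are no test of the set. The calls need both mice 495 and 485: without either of them 0 of the 10 passed, as did 0 genes of the whole array. At an unadjusted p under 0.05 in limma there were 4950 and 4948 genes, and 6 and 8 of the 10 members. Leaving out mouse 512 gave counts of 5 and 1 again, with Bmp2 and Fst set against contralateral arrays that read at background. Without mouse 495 and without mouse 485 the log2 changes were -1.49 and -1.52 for Bmp7, 3.54 and 2.65 for Inhba, 1.92 and 2.42 for Inhbb, and 2.41 and 2.15 for Nbl1.

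**Figure D1:**
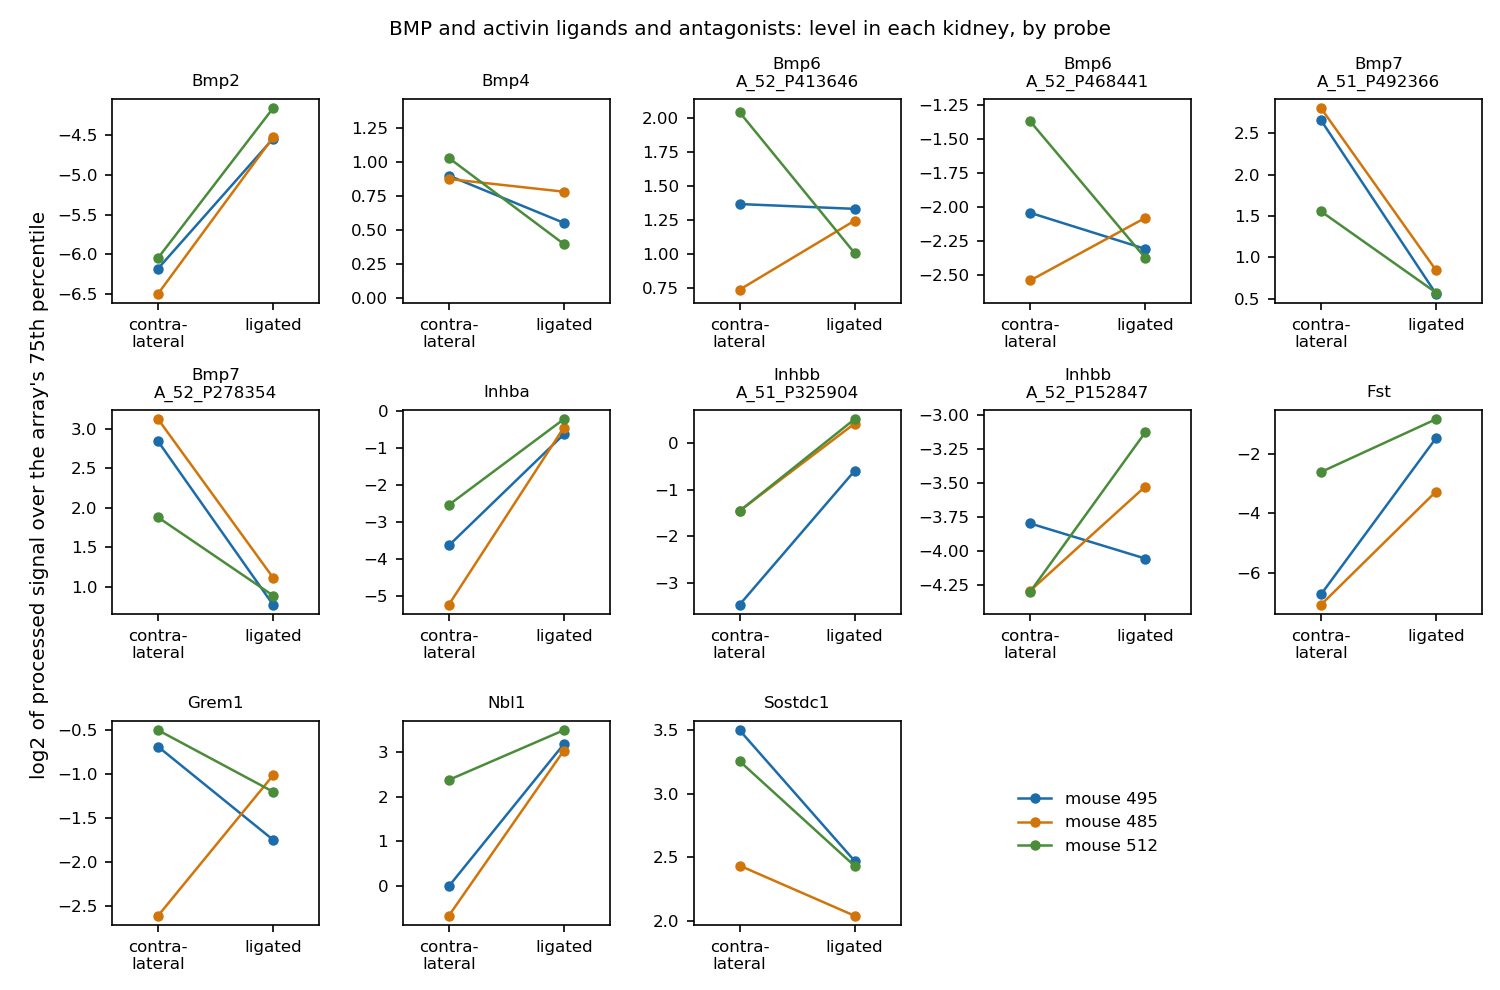
Level of each of the 13 probes in the 6 kidneys (y axis, log2 of the processed signal over the array's 75th percentile, so that 0 is the 75th percentile; x axis, contralateral and ligated kidney), with 1 line per mouse. Lines for Inhba, Bmp2, Fst and Nbl1 climb in all 3 mice and both Bmp7 probes drop, while Grem1 and Bmp6 lines cross.

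Levels below are the processed signal as a percentage of the 75th percentile of the same array, a scale on which kidneys can be compared for 1 probe but probes cannot be compared with each other. Mice 495, 485 and 512 had Bmp7 at 716%, 869% and 368% on the contralateral side and at 171%, 217% and 186% on the ligated side. All 3 ligated kidneys thus lay below all 3 contralateral ones, and the contralateral kidney of mouse 512 lay nearest to them. The difference was -1.68 ± 0.28 (log2 change ± SE, n = 3 mice; 3.21-fold lower, adjusted p = 0.0305 in limma), made up of -2.06, -2.00 and -0.99 in mice 495, 485 and 512. The other Bmp7 probe, spotted 10 times on each array, gave -1.68 ± 0.28 as well (adjusted p = 0.0297 in limma over all probes, of which 30.2% passed). Within a mouse the log2 changes of the Bmp7 probes differed by between -0.04 and 0.04.

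Bmp2, a ligand that signals through the same receptors as Bmp4, was very dim. In the order 495, 485 and 512, which holds from here on, it read 1.38%, 1.11% and 1.51% in contralateral kidneys and 4.29%, 4.34% and 5.60% in the ligated ones. The ligated readings are the higher ones, but those of the contralateral kidneys of mice 495 and 485 lie at background. Its probe was above background on 1 of 3 contralateral arrays, and the rise was 1.83 ± 0.15 on the log2 scale (adjusted p = 0.0220 in limma). Set against the lowest signal that counts as above background on each dim array, it was 2.96-fold, which is no strict bound. With normexp background correction, which adds an offset of 50 and shrinks changes near background, the value was 0.13 and was not called (adjusted p = 0.671).

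Spots of the same probe show how far a single array can be trusted for 3 of the ligands. The Bmp2, Bmp4 and Bmp7 probes were each printed on 10 spots per array, and 7 and 8 of the Bmp2 spots were left in the contralateral arrays of mice 495 and 485 once flagged spots were removed. The standard deviation between spots of 1 array was 0.03 to 0.06 on the log2 scale for Bmp7, 0.04 to 0.06 for Bmp4 and 0.08 to 0.29 for Bmp2. For Bmp7 and Bmp2 the spots of the ligated and the contralateral kidney did not overlap in any mouse. Bmp4 spots were apart in mice 495 and 512 and overlapped in mouse 485. On the contralateral arrays 0, 0 and 7 Bmp2 spots were above background in mice 495, 485 and 512, against all 10 on each ligated array. Repeated spots share 1 RNA sample, so this spread is technical and says nothing of the spread between mice.

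**Figure D2:**
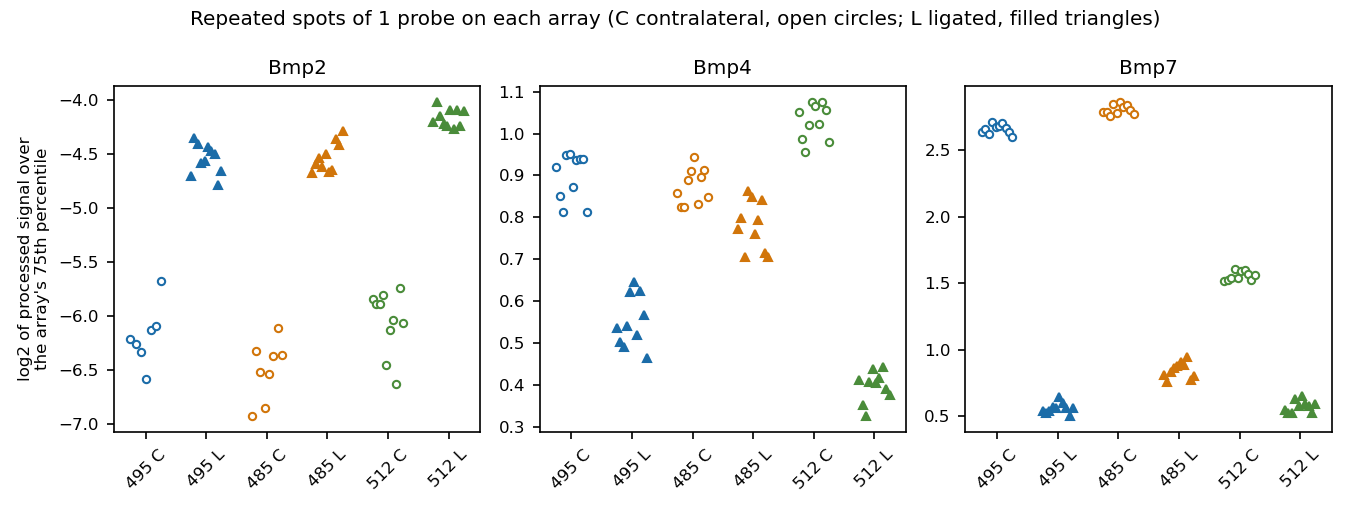
Every unflagged spot of the Bmp2, Bmp4 and Bmp7 probes that were printed 10 times per array (y axis, log2 of the processed signal over the array's 75th percentile; x axis, the 6 kidneys, C contralateral and L ligated). Spots of 1 array lie close together beside the gap between kidneys for Bmp7 and Bmp2, while the Bmp4 spots of mouse 485 overlap.

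Bmp4, which is made by stromal and smooth muscle cells around the tubules, was not called. Its levels were 186%, 183% and 204% in contralateral and 147%, 172% and 132% in ligated kidneys. Every ligated kidney lay below every contralateral one, but the change of -0.36 ± 0.17 did not pass (adjusted p = 0.173 in limma), with a 95% interval from -0.84 to 0.12. It was called lower with centring on the median (-0.66, adjusted p = 0.0406 in limma), and stood at -0.06 on the spike-in scale. The deposited value table has the same centring and repeats that call (-0.66, adjusted p = 0.0404). Bmp6, a ligand known for its part in iron balance, read 258%, 167% and 412% against 252%, 237% and 201% in the same order of mice. Its change had no common direction, with -0.04, 0.51 and -1.03 in mice 495, 485 and 512. The mean was -0.19 ± 0.34 (adjusted p = 0.681 in limma, 95% interval -1.14 to 0.76), and 0.11 when arrays were centred on spike-in spots. The Bmp6 probe printed above read 24.3%, 17.2% and 38.7% against 20.2%, 23.7% and 19.3%, which was also higher in mouse 485 and lower in the other mice.

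The activin subunit gene Inhba rose in the ligated kidney, and its groups do not overlap. It stood at 8.07%, 2.67% and 17.2% of the 75th percentile on the contralateral side and at 64.4%, 73.2% and 85.5% on the ligated side. Ligated kidneys lay close together and contralateral ones far apart, with standard deviations of 0.21 and 1.35 on the log2 scale. The median standard deviations of all genes, 0.18 and 0.35, differed in the same direction. The rise was 10.3-fold (3.36 ± 0.53, n = 3 mice, adjusted p = 0.0295 in limma), from changes of 3.00, 4.78 and 2.31. The contralateral reading of mouse 485, 2.67%, was above background, where the lowest such signal on that array was 1.69%. The fold thus rests in part on a dim reading. With normexp the change was 2.31 and was called (adjusted p = 0.0148 in limma).

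Inhbb, the subunit of activin B, depended on the probe. The probe that stands for the gene, the brighter and the one farther along the transcript, read 9.06%, 36.5% and 36.4% on the contralateral side and 66.1%, 133% and 143% on the ligated side. These groups do not overlap, and the rise was 4.71-fold (2.24 ± 0.26, adjusted p = 0.0232 in limma). The probe printed above read 7.20%, 5.11% and 5.09% against 6.02%, 8.69% and 11.4%, so it was lower in mouse 495 and higher in the other mice. Its change was 0.56 ± 0.32 and did not pass (adjusted p = 0.232 over all probes). The changes of the Inhbb probes differed by 0.80 to 3.12 in single mice, a gap wider than that of 98.0% of the 6627 genes with several probes. The difference of 1.68 ± 0.54 did not pass over those genes (adjusted p = 0.168 in limma, unadjusted p = 0.0388), where 0 genes passed. With the mean of its probes Inhbb stood at 1.40 and was called.

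Fst, the gene of the activin antagonist follistatin, rose. It read 0.962%, 0.757% and 16.3% in contralateral and 35.7%, 10.4% and 55.4% in ligated kidneys. The contralateral kidney of mouse 512 lay above the ligated kidney of mouse 485, so the groups overlap, although each ligated kidney exceeded its own partner. The probe was above background on the contralateral array of mouse 512 alone in that group. The rise of 3.59 ± 0.72 (adjusted p = 0.0361 in limma) was 7.80-fold against the lowest signal above background, which is no strict bound. Without the mouse in the model it did not pass (adjusted p = 0.0808), nor with no filter on dim probes (0.0517), and normexp gave 1.50 with the call kept.

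Nbl1, which encodes a small secreted protein of the DAN family, stood at 99.4%, 62.9% and 519% on the contralateral side and at 905%, 818% and 1125% on the ligated side. No ligated kidney fell within the contralateral range. The rise was 6.36-fold (2.67 ± 0.57, adjusted p = 0.0396 in limma; 0.0560 with no filter on dim probes), and it was 3.19, 3.70 and 1.12 in the 3 mice. Sostdc1 was lower in each ligated kidney, at 554%, 411% and 539% against 1132%, 540.1% and 956% in the partners. Its groups overlap, since the contralateral kidney of mouse 485 read less than the ligated kidney of mouse 495. The change of -0.75 ± 0.19 missed the threshold (adjusted p = 0.0510 in limma, 95% interval -1.27 to -0.23), and its call and size depended on the setting. It passed with centring on the median (-1.06, adjusted p = 0.0231), with an intensity trend in the variance model (0.0362), with every probe tested (0.0497) and with the filter on all 6 arrays (0.0439). It stood at -0.41 with quantile normalization (adjusted p = 0.165) and at -0.45 with centring on the spike-in spots (0.542), and had an adjusted p of 0.109 with no replicate block, so none of these called it.

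Grem1, a BMP antagonist that is active in kidney development, had no common direction. It read 62.2%, 16.4% and 70.8% in contralateral and 29.8%, 49.6% and 43.6% in ligated kidneys. It was thus lower in mice 495 and 512 and higher in mouse 485, whose contralateral kidney was the lowest of all. The mean change was -0.05 ± 0.60 (adjusted p = 0.947 in limma), and its 95% interval from -1.71 to 1.60 is wide. The sign turned to 0.25 with centring on the spike-in spots.

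**Figure D3:**
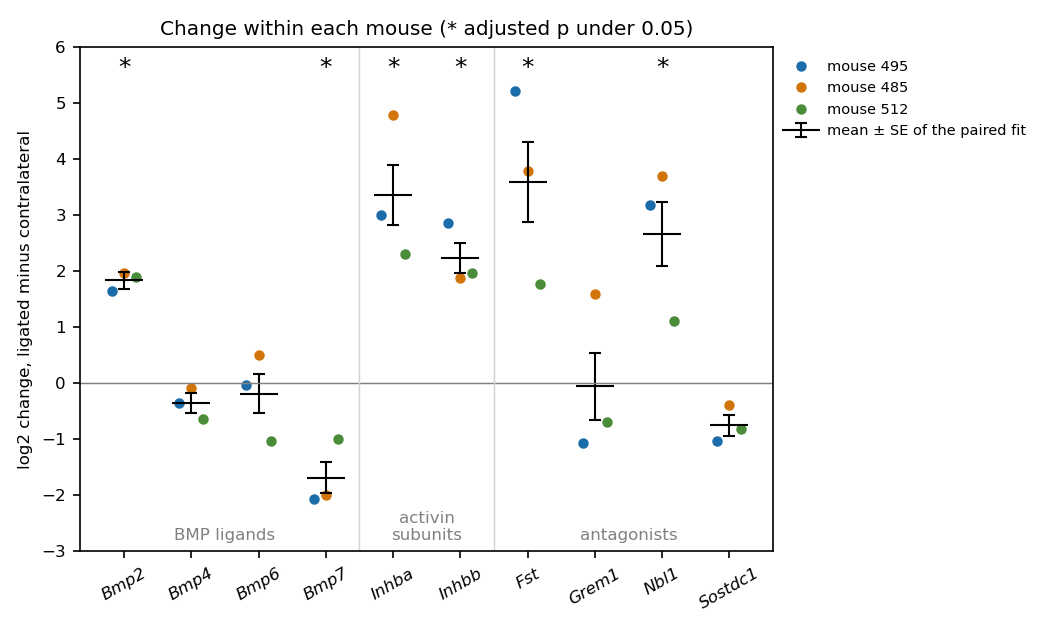
Log2 change in each mouse (coloured points) with the mean and SE of the paired limma fit (black), for the probe that stands for each gene; an asterisk marks an adjusted p under 0.05. Bmp7 alone is called below 0, and the 5 called rises reach from 1.83 for Bmp2 to 3.59 for Fst.

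The contralateral kidney of mouse 512 lay nearer to the ligated mean than the other contralateral kidneys for Nbl1, Bmp7 and Inhba. Measured from the mean of the other contralateral kidneys toward the mean of the ligated ones, it lay 76.0% of the way for Nbl1, 53.6% for Bmp7, 47.4% for Inhba and 39.0% for Inhbb; for Fst and Bmp2 the other contralateral kidneys read at background, so no such position is given. Its median over all called genes was 48.4%, and for Inhbb the contralateral kidney of mouse 485 lay as far along as that of mouse 512. Other contralateral kidneys lay farther out on the side away from the ligated mean. From the mean of the other contralateral kidneys, mouse 485 lay at -2.14 for Inhba, against 1.89 for mouse 512. For Inhbb mouse 495 lay at -2.01, against 1.00 for mouse 512 (log2 scale). For 4 of the 6 called members mouse 512 had the smallest change, as it did for 75.5% of all called genes. With that kidney left out of an unpaired fit, 5 of the 10 genes were higher and 1 lower, and Inhba was at 3.99, Nbl1 at 3.57 and Bmp7 at -2.05. Mice 495 and 485 shared slide 1 and mouse 512 had slide 2, so the fit without mouse 512 is the value within slide 1 (Inhba 3.89, Nbl1 3.44, Inhbb 2.37 and Bmp7 -2.03), and slide 2 holds 1 pair. Fst and Bmp2 are counted among the genes called higher in both of these fits. Every contralateral array left there read at background for them, so these calls add no support, and no value is given. Mouse and slide cannot be told apart for that animal.

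Other measures of the tissue moved with these genes. Of 12 fibroblast, myofibroblast and pericyte markers 10 rose, and their summed signal was 2096% to 8654% of the 75th percentile in contralateral and 15160% to 28370% in ligated kidneys. Of 12 macrophage and leukocyte markers 7 rose, from sums of 1675% to 8561% to sums of 19550% to 22370%. The highest contralateral sum of both lists was that of mouse 512. Collecting duct markers, from a segment that makes Bmp7, had 6 of 10 members lower and sums of 1769% to 4746% against 501% to 847%. Loop of Henle and distal tubule markers had 2 of 7 lower, with overlapping sums over all 8 listed of 11730% to 37230% and 12660% to 17020%. Proximal tubule markers had 9 of 11 lower, with sums of 24080% to 124100% against 10040% to 17500%. Podocyte markers went the other way, with 3 of 6 higher and sums of 277% to 367% against 654% to 723%. The part of these cell types in the results was not tested, and in whole-kidney RNA fewer cells of a type and less RNA per cell cannot be told apart. Urothelial markers, of which 3 of 7 could be tested, gave 0 calls (limma; Krt20 alone had an unadjusted p under 0.05, at 0.0265), with sums of 20.1% to 90.1% against 139% to 571%. The labels call the material both kidney and primary cells. Every tubule, podocyte, endothelial and leukocyte marker on the lists was above background on at least 1 array. Lep of adipocytes and Cyp11a1 and Cyp11b2 of the adrenal cortex were above it on no array. The other adipocyte and adrenal markers with a probe were above it on at least 1 array. Among them Retn, Star, Mc2r and Cyp21a1 were above it on all 3 arrays of each group. Of the 2 adipocyte and 3 adrenal markers that could be tested 0 were called (limma; Cyp21a1 alone had an unadjusted p under 0.05, at 0.0446), with adipocyte sums of 10.7% to 52.0% against 9.20% to 187% and adrenal sums of 15.3% to 20.8% against 14.6% to 18.2%.

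Other genes of the pathway changed in part. Of 14 further BMP, GDF and activin ligands measured, 5 rose and 1 fell, with a median log2 change of 0.62. Gdf3 rose by 3.31 ± 0.40 on the log2 scale (adjusted p = 0.0236 in limma), or 6.43-fold against the lowest signal above background. It was above background on 1 contralateral array and stood at 1.01 with normexp. Gdf1, whose transcript also encodes the ceramide synthase Cers1 so that its probe may read both, rose 3.00-fold, and Gdf9, best known from the oocyte, rose 2.79-fold but not with normexp (adjusted p = 0.0614). Bmp3, Inha and Nodal were picked out after their values were seen: Bmp3 rose by 1.34 and Inha, the subunit that turns activins into inhibins, by 1.29 on the log2 scale, and Nodal fell (-1.33 ± 0.32). The probes of another 8 listed ligands, Bmp5, Bmp8b, Bmp10, Bmp15, Gdf2, Mstn, Inhbc and Amh, did not pass the filter on dim probes.

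A few genes of the receptors that BMPs and activins bind were called. Of 12 receptors and coreceptors measured, 3 rose and 0 fell (limma, 5 at an unadjusted p under 0.05), with a median of 0.42. They were the BMP coreceptor gene Rgma (3.53-fold, 1.82 ± 0.32), the endothelial receptor gene Acvrl1 (3.12-fold) and the endothelial coreceptor gene Eng (2.06-fold). Eng was not called with centring on the spike-in spots (adjusted p = 0.0630) or with no filter on dim probes (0.0515). Endothelial markers had 5 of 7 members higher beside them, with sums of 1019% to 1328% in contralateral and 1782% to 2091% in ligated kidneys; the part of these cells was not tested. The type I receptor gene Bmpr1a stood at 0.34 and the type II receptor genes Bmpr2 and Acvr2a at 0.19 and -0.04, none of them called.

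Further antagonists and modulators went in both directions. Of 21 measured, 4 rose and 3 fell, with a median of 0.13. Smoc2, a matricellular protein, rose 12.4-fold (3.63 ± 0.37, adjusted p = 0.0220 in limma). Fstl1, a follistatin-like protein, and Bmper, which binds BMPs outside the cell, each rose 5.61-fold. Bmper was above background on 1 contralateral array. Set against the lowest signal above background its fold stayed the same, so 5.61 is no lower bound for it. With normexp Bmper stood at 0.99 on the log2 scale. Bambi, Smoc1 and Fstl5 were picked out after their values were seen. Bambi, a decoy receptor, rose by 1.56, while Smoc1 (-1.87 ± 0.24), a relative of Smoc2, and Fstl5 (-0.64 ± 0.14) fell. Noggin (Nog) and chordin (Chrd), classical BMP antagonists, stood at -0.44 and -0.46 and were not called.

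Intracellular genes of the pathway gave few calls. Of 7 Smad genes measured, Smad1 rose 2.18-fold (1.12 ± 0.25, adjusted p = 0.0408 in limma) and 0 fell; a second Smad1 probe stood at 1.03 and did not pass, and the call was lost with centring on the median (0.0513), on the spike-in spots (0.0799) or with no filter (0.0643). The feedback inhibitor genes Smad6 and Smad7 stood at 0.12 and 0.33. Of 10 genes known as BMP targets, 2 rose and 0 fell, with a median of 0.34 that was 0.52, 0.86 and -0.49 in mice 495, 485 and 512. They were Runx2, a transcription factor of bone formation (2.14 ± 0.22, with other probes at 2.25 and 1.40), and Atoh8, which was not called with normexp or without the mouse in the model. The Id genes, which respond to BMPs in many cells, were not called: Id1 stood at 0.86, 0.76 and -1.06 in mice 495, 485 and 512, and Id3 at 1.95, 2.31 and -1.21. Id2 read -0.72, -0.07 and -1.26. The share called in these lists was 42.9% of further ligands, 33.3% of antagonists and modulators, 25.0% of receptors, 20.0% of target genes and 14.3% of Smad genes, beside 30.7% of all genes.

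**Figure D4:**
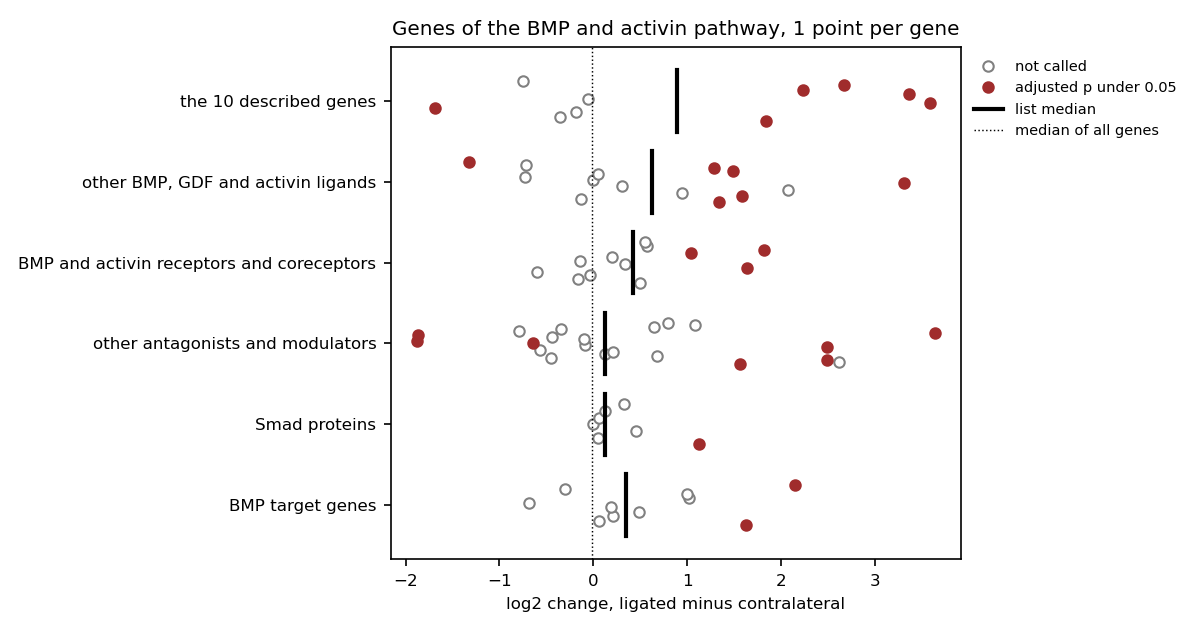
Log2 change of each measured gene in 6 lists of the pathway (x axis), with genes at an adjusted p under 0.05 filled, list medians as bars and the median of all genes as a dotted line. The 10 genes described here run from -1.68 to 3.59, and of the 7 Smad genes only Smad1 is filled.

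Over the 6 arrays the gene most like each member, among 14639 others with a plain symbol, had a Pearson r between 0.955 and 0.9998. For Bmp7 it was Prdx5, an antioxidant peroxiredoxin gene (r = 0.9998, log2 change -2.00), and 2550 genes had an r over 0.95 with Bmp7. The nearest to Bmp2 was Abi3bp (r = 0.999), to Inhba Eepd1 (r = 0.9995) and to Nbl1 Esyt1 (r = 0.9995), while Grem1 had 1 gene over 0.95, Mcf2l (r = 0.955). The others were Dido1 for Bmp4 (r = 0.992), Nectin1 for Bmp6 (r = 0.980), 4930486L24Rik for Inhbb (r = 0.997), the histone gene H4c1 for Fst (r = 0.999) and Ppat for Sostdc1 (r = 0.9925). With 6 arrays from 3 mice that share 1 contrast, such values describe the arrays and carry no test.

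Promoter windows from RefSeq were at hand for 6 of the 10 genes (Bmp4, Bmp6, Inhba, Inhbb, Grem1 and Nbl1; build GRCm38.p6). In the 250 bases before the start, both strands were searched for CAGAC, the Smad-binding box found in 42.2% of all 32851 windows of that length, GGCGCC, a GC-rich element of BMP Smads (9.59%), the AP-1 site TGANTCA (6.75%) and the TATA letters TATAAA (12.4%). CAGAC was present in Bmp6 and Grem1, GGCGCC in Grem1 and Nbl1, TATAAA in Inhba and TGANTCA in 0 of 6, and no matches overlapped. The windows of the risers Inhba (chr13:16011601-16011850, plus strand) and Nbl1 (chr4:139092971-139093220, minus strand) are shown with their matches in capitals, because they differ most in base composition, with 43.2% and 77.6% G and C. The median of all windows was 52.4%.
Inhba: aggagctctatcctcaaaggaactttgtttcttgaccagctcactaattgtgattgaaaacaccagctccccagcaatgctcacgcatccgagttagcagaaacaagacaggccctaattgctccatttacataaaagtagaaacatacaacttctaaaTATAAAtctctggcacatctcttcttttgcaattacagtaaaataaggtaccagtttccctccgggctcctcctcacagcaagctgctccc
Nbl1: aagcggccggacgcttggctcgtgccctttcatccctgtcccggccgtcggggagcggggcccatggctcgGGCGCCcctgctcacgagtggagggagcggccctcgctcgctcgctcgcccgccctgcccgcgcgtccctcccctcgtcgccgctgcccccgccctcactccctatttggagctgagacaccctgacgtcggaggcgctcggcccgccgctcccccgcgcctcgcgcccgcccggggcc
The TATAAA letters of Inhba begin 91 bases before the start and the GGCGCC letters of Nbl1 179 bases before it. A match is a description of the letters and not a measured site.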

How the data were processed

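Cy3-labelled cRNA of each kidney was hybridized to its own array of design 014868, as the labels' protocols say. The tables the authors deposited hold a processed signal that is a linear intensity, background-subtracted and detrended within the array by Agilent Feature Extraction 10.5.1.1, per the file headers (the submitters' processing notes name 9.1), with no scaling between arrays. Each spot's flags (above background, saturated, outlying) are 0 or 1, per the file headers. The deposited value table is a linear ratio of the processed signal to the array's median (each column has a median of 1), as found by setting it against the scanner values.

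Of 43379 non-control spots per array, 43 to 79 flagged outliers were left out and 0 were saturated. The log2 processed signal minus the array's 75th percentile was averaged over the spots of a probe. The 75th percentile was 671 to 1105 in contralateral and 1068 to 1433 in ligated kidneys, and 65.7% to 69.5% and 72.1% to 74.7% of spots were above background. The number of arrays limits the precision. Probes above background (in at least 0.5 of their spots) on all 3 arrays of a group were kept, symbols were updated through RefSeq accessions, and the brightest probe stood for its gene, which gave 19598 genes. Changes were tested two-sided with limma 3.58.1 in R 4.3.3, with the mouse as a block (2 residual degrees of freedom, 2.06 added by eBayes), Benjamini-Hochberg adjustment and 95% intervals from the moderated fit. Kidneys were paired by the mouse numbers that the labels give, and their deviations from their group's mean correlated at 0.194, 0.481 and 0.271 between the kidneys of mice 495, 485 and 512, above every correlation between different mice. With 3 kidneys per group the deviations sum to 0, which ties these correlations together, so they are no independent check of the pairing.

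The 10 genes, the pathway and marker lists, the tests and the alternatives were chosen with earlier results of these data known. All 10 genes are named, with the 3 called genes of largest change from each other pathway list (or, with none called, the smallest p) and the gene most like each member; all other genes named were picked after their values were seen, and 1 called gene of the lists is not reported here by name. A fold is given against the lowest signal above background where a probe was dim and this lowered the fold. Readings above that signal can still count as background, so such a fold is not a strict bound. Alternatives varied the scaling, the background correction, the filter, the probe, the block, the variance model and the mice.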

Additional observations from a re-analysis of the deposited data

How the results depend on the processing

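Against 6019 genes called (3137 higher, 2882 lower), centring on the spike-in spots called 3190 (2466 and 724) and no filter on dim probes, with 28468 genes tested, 2683 (1773 and 910); leaving out a mouse, or the contralateral kidney of mouse 512 from an unpaired fit, gave 0 to 11042, with 11026 without mouse 512. Centring on the median split the calls into 2566 and 5941, and normexp into 1992 and 2772. The deposited value table, itself a ratio to the median, gave 2561 and 5938. Over all genes the median shift was -0.32 with centring on the median, 0.29 on the spike-in spots and -0.18 with normexp, and changes are relative to that shift. Members called higher numbered 3 with no filter and 3 with the filter on all 6 arrays, which does not test Bmp2 and Fst, and 0 to 5 when arrays were left out. Members called lower numbered 3 with centring on the median (Bmp4 and Sostdc1 added), which the value table repeats. They numbered 2 with the filter on all 6 arrays, 2 with every probe tested, 2 with an intensity trend, and 0 to 1 when arrays were left out. With no replicate block, 4 members rose and 1 fell and 5555 genes were called. Bmp6 turned to 0.11 on the spike-in scale, 0.24 without mouse 512 and 0.14 in the unpaired fit without that contralateral kidney, and Grem1 to 0.25, 0.27 and 0.33 in the same fits and 0.45 without mouse 495, while leaving out mouse 485 gave -0.53 and -0.88; neither was called in any of these, and the cause was not tested. Bmp7 kept its sign in all 16 alternatives (-2.05 to -1.38), as did Inhba (2.31 to 3.99), Inhbb (1.40 to 2.57) and Nbl1 (2.15 to 3.57). Alternatives that vary only the filter, the block, the variance model or the set of probes tested leave these values as they are. The deposited value table repeats centring on the median. These settings are therefore no further check of the sign. The Inhbb values rest on its brighter probe, alone or averaged with the other probe, which by itself gave 0.56 and was not called. Bmp2 and Fst, whose sizes are set by contralateral readings at background, kept their sign in the 15 that tested them, with the same limit.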
